A study of Mus musculus with 16 samples.

Results

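The expression of 6 genes of the red blood cell lineage was followed over all 16 arrays of a mouse olfactory mucosa study. The genes are Alas2, Hbq1b, Slc4a1, Rhag, Epb42 and Car1, and they were chosen by name as the array features annotated to them. Earlier results of these data were known when they were chosen. Each of the 6 had 1 feature among the 19505 genes measured. The values were log2 signals, so that a difference of 1 is a doubling of signal. The mice were S100a5-tauGFP animals of strain C57BL/6, 24 males and females in all and 7 to 12 weeks old, in which the promoter of S100a5, a gene that follows the activity of olfactory sensory neurons, drives a green fluorescent reporter. They were kept singly in clean air for 40 h at a flow of 3.1 L/min, and after 26 h were given pulses of 10 s every 20 min of whiskey lactone (odor), an aroma compound of oak, or of filtered air (vehicle). Cells of 3 mice were pooled and sorted by fluorescence into 2 fractions. The 4 odor pools and 4 vehicle pools thus gave 4 groups of 4 arrays: odor titled GFP+, vehicle titled GFP+, odor titled GFP- and vehicle titled GFP-. The 3 animals of a pool cannot be told apart, and the replicates are separate pools.

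The sample titles and the cell type field named opposite fractions in all 16 arrays, and the groups here follow the titles. S100a5 itself was lower in the arrays titled GFP+. It averaged 15.2 ± 0.30 in the odor arrays titled GFP+ and 16.6 ± 0.13 in the odor arrays titled GFP- (SD, n = 4 each). In the vehicle pools it averaged 15.3 ± 0.27 in the arrays titled GFP+ and 16.5 ± 0.19 in those titled GFP- (SD, n = 4 each). If the cell type field were right instead, each difference between fractions given here would change its sign, and each comparison of odor with vehicle would keep its sign but belong to the other fraction. Omp, the marker of mature olfactory neurons, was high in both fractions, with group means of 18.5 to 18.7. Arrays of the same group correlated at 0.986 to 0.994 over all genes, and arrays of different fractions at 0.927 to 0.968. The median signal of the 5222 negative control features was 4.98 to 5.59 on the 16 arrays and is used here as the background level.

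Red blood cells form from nucleated precursors that fill with hemoglobin, a protein of globin chains and heme, and rebuild their membrane before they lose the nucleus. Alas2 encodes the first and rate-limiting enzyme of heme synthesis in these precursors, and Hbq1b a theta globin, whose gene lies between Hba-a1 and Hba-a2. Slc4a1 encodes band 3, the anion exchanger of the red cell membrane. Rhag encodes the Rh-associated glycoprotein, a membrane channel of the Rh complex, and Epb42 protein 4.2, which ties band 3 to the spectrin skeleton. Car1 encodes a carbonic anhydrase, which interconverts carbon dioxide and bicarbonate.

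The genes lie on several chromosomes: Alas2 on X, Hbq1b and Slc4a1 both on 11, Rhag on 17, Epb42 on 2 and Car1 on 3. Promoter windows of 250 bases before to 50 bases after the start site were found for 4 of the 6 genes in RefSeq (build GRCm38.p6). They are shown because the genes varied together across the arrays, and because GATA factors, which bind such letters, act in red cell precursors. Both strands were searched for the GATA motif, first as AGATAA or in its variant form AGATAG, then with another first base as TGATAA or in the variant form TGATAG. They were also searched for CACCC, the core of the sites bound by Klf1-type factors. No GATA match overlapped a CACCC match. GATA matches are in capitals, on the strand of the gene as printed, where they read as the reverse complement.
Alas2, chrX:150547167-150547466, plus strand: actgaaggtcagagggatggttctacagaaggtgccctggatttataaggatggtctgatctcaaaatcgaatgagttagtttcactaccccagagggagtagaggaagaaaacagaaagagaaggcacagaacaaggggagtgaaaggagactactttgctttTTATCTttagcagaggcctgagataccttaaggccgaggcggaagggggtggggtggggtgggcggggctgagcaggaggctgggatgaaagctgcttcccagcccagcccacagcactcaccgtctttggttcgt
Rhag, chr17:40810899-40811198, plus strand: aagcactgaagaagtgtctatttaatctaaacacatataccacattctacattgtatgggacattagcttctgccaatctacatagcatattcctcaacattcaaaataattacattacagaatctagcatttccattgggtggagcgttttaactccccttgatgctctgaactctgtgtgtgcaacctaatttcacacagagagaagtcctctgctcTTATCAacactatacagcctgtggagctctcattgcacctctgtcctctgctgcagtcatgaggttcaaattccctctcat
Epb42, chr2:121036828-121037127, minus strand: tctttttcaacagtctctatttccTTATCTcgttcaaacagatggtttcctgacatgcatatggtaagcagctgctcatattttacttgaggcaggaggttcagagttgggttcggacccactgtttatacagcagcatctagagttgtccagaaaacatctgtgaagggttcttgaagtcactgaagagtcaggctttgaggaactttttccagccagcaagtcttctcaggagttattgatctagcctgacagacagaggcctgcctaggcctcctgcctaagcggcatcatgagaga
Hbq1b, chr11:32286714-32287013, plus strand: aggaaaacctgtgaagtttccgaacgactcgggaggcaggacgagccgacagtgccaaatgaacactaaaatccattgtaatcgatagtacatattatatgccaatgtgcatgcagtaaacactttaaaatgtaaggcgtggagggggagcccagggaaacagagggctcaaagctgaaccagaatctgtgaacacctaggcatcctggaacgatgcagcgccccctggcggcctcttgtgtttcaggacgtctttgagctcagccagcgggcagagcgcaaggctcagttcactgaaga

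A GATA match was present in 3 of the 4 windows. In Alas2 it began at -86 from the start site, in Rhag at -31 and in Epb42 at -226. Among all 32851 mouse promoter windows of this length, 29.8% held such a match. CACCC occurred 3 times in the Alas2 window and once in that of Rhag, and 57.5% of all windows held it. Neither motif was found in the Hbq1b window, which is 95.3% identical (286 of 300 bases) to that of Hbq1a, a gene nearby on the same chromosome. The transcripts and probes of these 2 theta globin genes were not compared, and whether their features share signal was not tested.

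**Figure D1:**
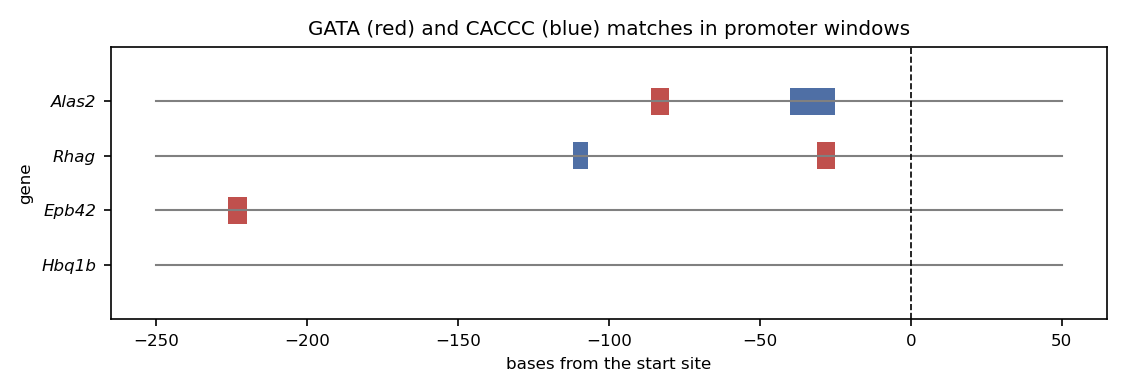
Position of GATA (red) and CACCC (blue) matches in the promoter windows of 4 red cell genes, with bases from the start site on the horizontal axis and 1 line per gene. The GATA match lies at -86 in Alas2, -31 in Rhag and -226 in Epb42, and Hbq1b has none of either motif.

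The 6 genes had their higher signals in the arrays titled GFP+, under either treatment. In the odor pools all 6 passed an adjusted p of 0.05 as higher, where 12.8% of all genes did, and under vehicle 5 of 6 did, where 12.3% of all genes did. Differences were tested with limma with the pool as a block, and adjusted by the Benjamini-Hochberg method over all genes. The median difference of the 6 genes was 3.71 in the odor pools, against -0.15 for all genes. It was 2.33 in the vehicle pools, against -0.14 for all genes. With genes not above background in the arrays titled GFP- set to their lower bound, the 2 medians were 3.15 and 2.05. In material of mixed cells, fewer cells of a type and less RNA per cell cannot be told apart.

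**Figure D2:**
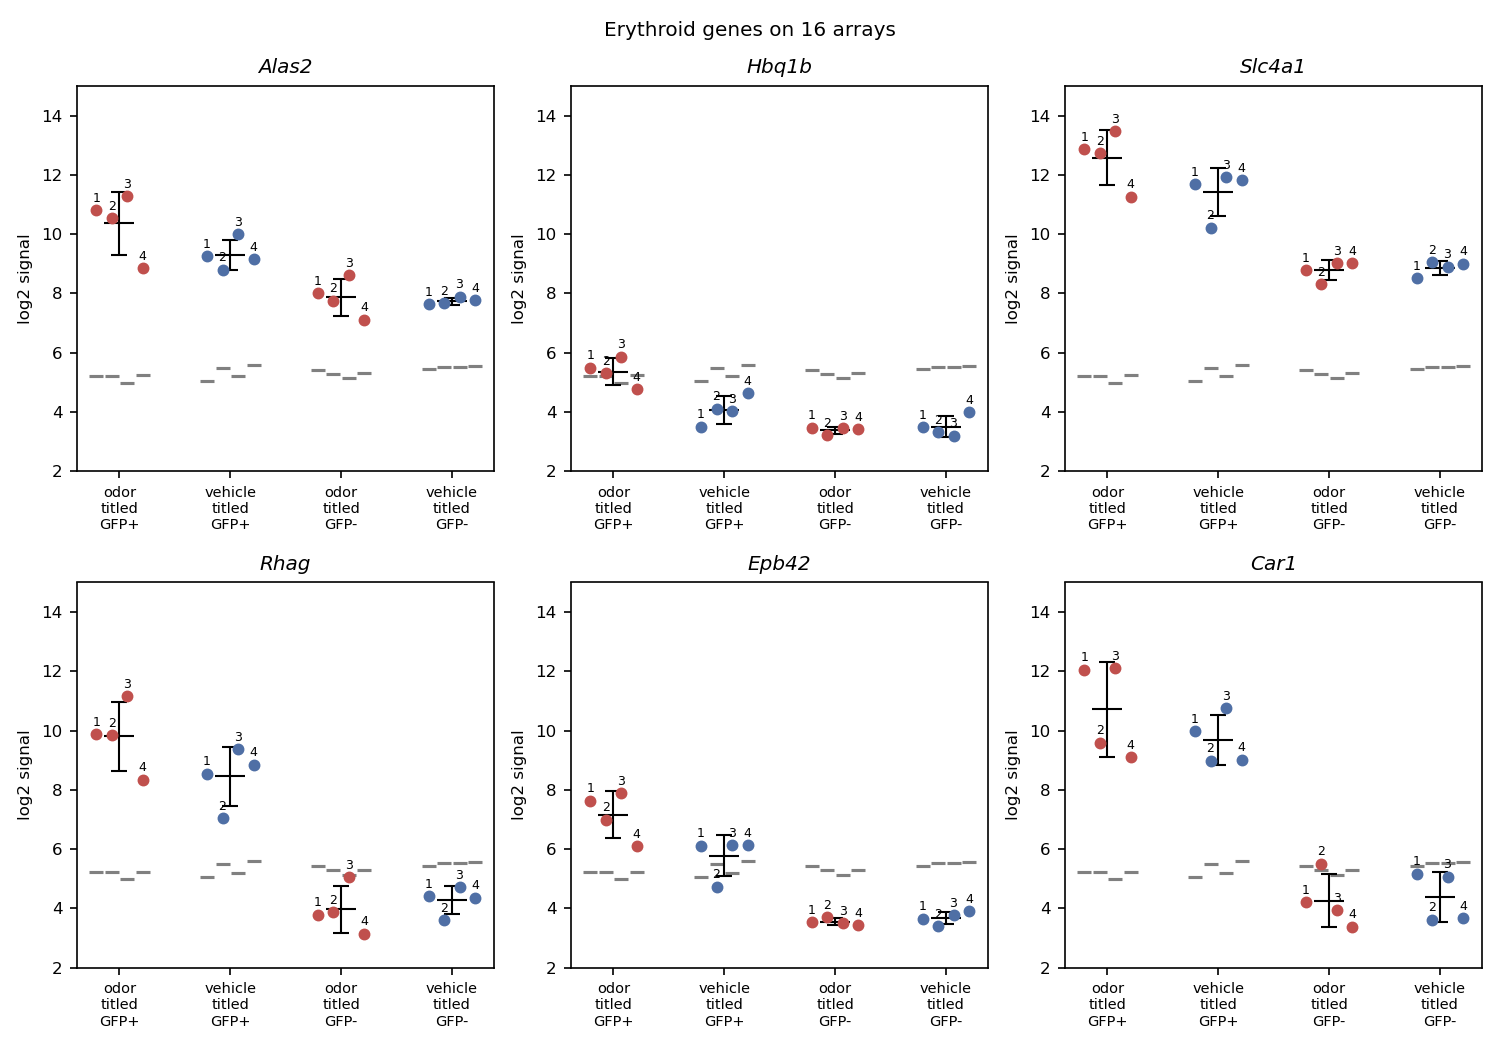
Log2 signal of the 6 red cell genes (1 panel each) in the 16 arrays, by treatment and titled fraction. Coloured points are pools with their replicate number, black bars the mean ± SD of 4 pools, and grey dashes the median of the negative control features of each array. The arrays titled GFP+ stand above those titled GFP- for all but Hbq1b in the vehicle pools, where the groups overlap.

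Alas2, the heme synthesis gene, had signals of 10.81, 10.54, 11.29 and 8.84 in odor pools 1 to 4 titled GFP+, against 8.01, 7.75, 8.61 and 7.11 in the same pools titled GFP-. Vehicle pools had 9.25, 8.80, 10.00 and 9.14 titled GFP+, against 7.63, 7.66, 7.89 and 7.78 titled GFP-. The fractions did not overlap under either treatment, and every array was above background. Alas2 was 5.66-fold higher in titled GFP+ in the odor pools (log2 difference 2.50 ± 0.20 SE, adjusted p = 8.28e-07). It was 2.95-fold higher in the vehicle pools (1.56 ± 0.20 SE, adjusted p = 7.35e-05).

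Hbq1b, the theta globin, was above background in the fewest arrays. Its signals were 5.49, 5.30, 5.86 and 4.78 in odor pools titled GFP+, against 3.47, 3.21, 3.44 and 3.43 in odor pools titled GFP-. Vehicle pools had 3.50, 4.10, 4.03 and 4.64 titled GFP+, against 3.49, 3.33, 3.20 and 4.00 titled GFP-. Only 3 of the 16 arrays, all of them odor arrays titled GFP+, exceeded the background. The odor fractions did not overlap, and the difference passed the test (1.97 ± 0.20 SE, adjusted p = 6.91e-06), but the fold can be stated only as at least 1.05. The vehicle fractions overlapped, both were below background, and the difference did not pass (0.57 ± 0.20 SE, adjusted p = 0.0568).

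Slc4a1, the anion exchanger, was above background in every array. It had 12.86, 12.73, 13.47 and 11.26 in odor pools titled GFP+, against 8.79, 8.31, 9.01 and 9.02 in odor pools titled GFP-. In vehicle pools it had 11.70, 10.22, 11.93 and 11.82 titled GFP+, against 8.52, 9.05, 8.90 and 9.004 titled GFP-. The fractions were apart in both treatments, with the vehicle pool 2 nearest to overlap. Slc4a1 was 13.9-fold higher in titled GFP+ in the odor pools (3.79 ± 0.36 SE, adjusted p = 3.11e-06) and 5.85-fold higher in the vehicle pools (2.55 ± 0.36 SE, adjusted p = 0.000134).

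Rhag, of the Rh complex, was above background in all 8 arrays titled GFP+ and in none titled GFP-. It had 9.88, 9.84, 11.17 and 8.34 in odor pools titled GFP+, against 3.78, 3.87, 5.05 and 3.15 in odor pools titled GFP-. In vehicle pools it had 8.55, 7.05, 9.37 and 8.86 titled GFP+, against 4.41, 3.60, 4.71 and 4.36 titled GFP-. Its signal was at least 22.9-fold higher in titled GFP+ in the odor pools (adjusted p = 8.69e-10) and at least 7.69-fold higher in the vehicle pools (adjusted p = 2.16e-08). With the negative controls' 95th percentile, 9.09 to 10.1, in place of their median, the first bound was 1.28, and no fold could be given for the vehicle pools, where both fractions were below that level.

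Epb42, which ties band 3 to the skeleton, was above background in 4 of 4 odor and 3 of 4 vehicle arrays titled GFP+. It had 7.63, 7.00, 7.89 and 6.11 in odor pools titled GFP+, against 3.54, 3.71, 3.50 and 3.43 in odor pools titled GFP-. In vehicle pools it had 6.11, 4.74, 6.13 and 6.14 titled GFP+, against 3.65, 3.39, 3.76 and 3.90 titled GFP-. The fractions did not overlap, and no array titled GFP- was above background. Epb42 was at least 3.66-fold higher in titled GFP+ in the odor pools (adjusted p = 4.41e-07) and at least 1.20-fold higher in the vehicle pools (adjusted p = 7.52e-05).

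Car1, the carbonic anhydrase, varied most among the 6 genes over the odor pools titled GFP+, with an SD of 1.59. It had 12.05, 9.60, 12.11 and 9.10 in odor pools titled GFP+, against 4.22, 5.51, 3.95 and 3.38 in odor pools titled GFP-. In vehicle pools it had 9.98, 8.99, 10.75 and 9.02 titled GFP+, against 5.17, 3.62, 5.07 and 3.68 titled GFP-. The fractions did not overlap under either treatment. In the odor pools, where 1 array titled GFP- exceeded background, the fitted difference was 6.45 ± 0.50 SE (adjusted p = 4.67e-07), which corresponds to 87.4-fold. With the signals below background set to the control median it was 41.4-fold. Car1 was at least 18.0-fold higher in titled GFP+ in the vehicle pools (adjusted p = 3.25e-06).

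Since both fractions of a pool came from the same mice, the difference can also be read pool by pool for Alas2 and Slc4a1, which were above background in every array. It was positive in 4 of 4 pools of each treatment for both. Alas2 differed by 1.73 to 2.80 within odor pools and by 1.14 to 2.11 within vehicle pools, and Slc4a1 by 2.24 to 4.46 within odor pools and by 1.17 to 3.18 within vehicle pools. Odor pool 4 had the smallest difference of the odor pools for both genes, and vehicle pool 2 that of the vehicle pools. The ranges of the 2 treatments overlapped. For Rhag, with signals below background set to the control median of their array, the differences were 3.04 to 6.03 within odor pools and 1.52 to 3.84 within vehicle pools, and these ranges overlapped too. In the same way Epb42 differed by 0.81 to 2.75 within odor pools and by -0.05 to 0.68 within vehicle pools, without overlap. The ranges of Car1 and Hbq1b overlapped.

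The groups without overlap between fractions were 6 of 6 genes in the odor pools, where 12% of all genes had every titled GFP+ array above every titled GFP- array. They were 5 of 6 in the vehicle pools, where 11.2% of all genes did. At the 95th percentile of the negative controls, in the odor arrays titled GFP+, Slc4a1 exceeded it in 4 of 4, Alas2, Rhag and Car1 in 3 of 4, and Hbq1b and Epb42 in 0 of 4. None of the 6 genes exceeded it in any array titled GFP-. With that level as the bound, Slc4a1 was at least 8.77-fold higher in the odor pools and 3.25-fold in the vehicle pools. Alas2 was at least 1.90-fold and Car1 at least 2.41-fold higher in the odor pools, and neither had a fold in the vehicle pools.

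The fraction difference was larger in the odor pools than in the vehicle pools for each of the 6 genes, by 0.94 to 1.66 on the log2 scale. None of these excesses passed the test over all genes (limma interaction term, adjusted p = 0.999 for each), and 0% of all genes passed as higher and 0.00513% as lower. Without adjustment, 5 of 6 were under 0.05, where 1.61% of all genes were under it as higher. Because the genes were chosen with earlier results known, that count is a description. For Alas2 and Slc4a1, measured above background throughout, the excess was 0.94 ± 0.29 SE and 1.25 ± 0.51 SE. For the other 4, titled GFP- signals were mostly below background. So were the vehicle signals of Hbq1b titled GFP+, its odor pool 4 and vehicle pool 2 of Epb42 in that fraction. All signals below background, in either fraction, were then set to the control median of their array. The excess became 1.58 for Rhag, 1.42 for Epb42, 1.20 for Car1 and 0.36 for Hbq1b. The fitted values were 1.66, 1.51, 1.15 and 1.40, in that order. The fitted excess of Car1 was the one not under 0.05 before adjustment. This difference uses the same arrays titled GFP+ as the comparison of treatments described next.

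**Figure D3:**
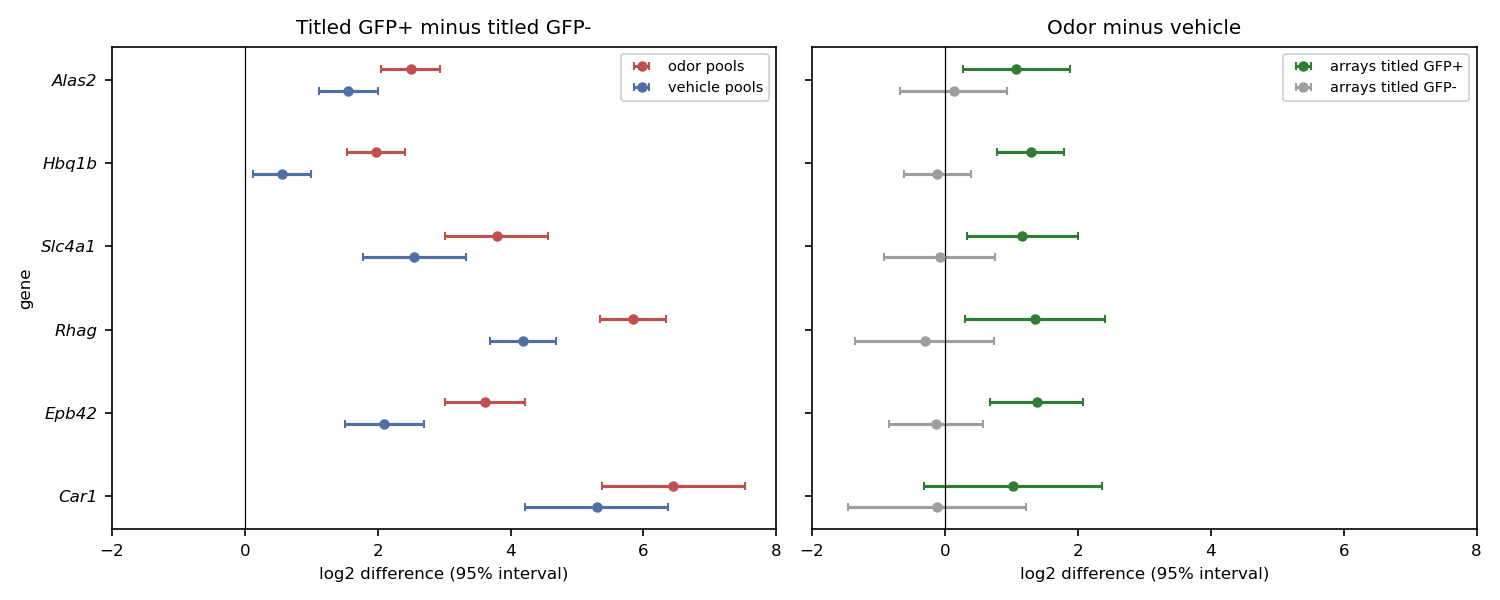
Log2 differences with 95% intervals for the 6 red cell genes, titled GFP+ minus titled GFP- by treatment (left) and odor minus vehicle by titled fraction (right). The fitted differences on the left run from 0.57 for Hbq1b in vehicle pools to 6.45 for Car1 in odor pools, and the right ones from 1.03 to 1.38 in arrays titled GFP+ and from -0.31 to 0.13 in those titled GFP-.

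Within the arrays titled GFP+ the odor pools had higher means than the vehicle pools for all 6 genes, by 1.03 to 1.38 on the log2 scale, and none passed the test. No gene at all passed as higher (0%), 0.00513% as lower. The adjusted p was 0.275 for Hbq1b, 0.702 for Epb42, 0.976 for Slc4a1 and 1.00 for Alas2, Rhag and Car1. Unadjusted, 5 of the 6 were under 0.05, where 2.79% of all genes were under it as higher. Ordered by the difference over all 19505 genes, the 6 stood at places 13 to 42. The 6 genes were chosen with earlier results of these data known and varied in part together across pools. Their places and shares are therefore a description and not a test. The median was 1.23 for the 6 genes and 0.01 for all genes.

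In group means, Alas2 was 10.37 ± 1.07 in odor and 9.30 ± 0.51 in vehicle arrays titled GFP+ (SD, n = 4 each), and Slc4a1 was 12.58 ± 0.94 in odor and 11.42 ± 0.80 in vehicle. Rhag was 9.81 ± 1.16 in odor and 8.45 ± 1.00 in vehicle, Epb42 7.16 ± 0.79 in odor and 5.78 ± 0.70 in vehicle, and Hbq1b 5.36 ± 0.45 in odor and 4.07 ± 0.47 in vehicle. Car1 was 10.71 ± 1.59 in odor and 9.68 ± 0.85 in vehicle. For each gene the 4 groups thus had the order odor titled GFP+, vehicle titled GFP+ and then both groups titled GFP-, which overlapped each other; for all but Hbq1b the first 2 groups overlapped as well.

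By gene the differences were 1.07 ± 0.38 for Alas2, 1.29 ± 0.24 for Hbq1b, 1.16 ± 0.40 for Slc4a1, 1.35 ± 0.50 for Rhag, 1.38 ± 0.33 for Epb42 and 1.03 ± 0.64 for Car1 (SE, n = 4 pools per treatment). Of these, Hbq1b was the only one whose 4 odor arrays all lay above the 4 vehicle arrays, as 1.34% of all genes did, and for it the vehicle arrays were below background, so that the fold is at least 1.02. The other 5 overlapped between treatments. Set against vehicle pools of the same number, all 6 genes were higher in odor pools 1, 2 and 3, as 15.7% of all genes were, and 2 of 6 were in pool 4, where the differences ran from -0.56 to 0.14. Over all 4 numbers, Hbq1b and Car1 were higher in odor in each, as 6.94% of all genes were. The numbers are not stated to mark shared exposures.

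The genes varied in part together across pools. In the odor arrays titled GFP+ all 6 genes had the same order, with pool 3 highest, then 1, 2 and 4. The share of all genes with that order was not counted. In the vehicle arrays titled GFP+ the order differed among the genes. In the vehicle arrays titled GFP+ pool 2 was the lowest for Alas2, Slc4a1, Rhag, Epb42 and Car1, and pool 1 for Hbq1b. Without odor pool 4, Alas2 was 1.58 and Hbq1b 1.48 higher in odor (adjusted p = 0.0370 for both, limma), and these 2 then passed the test, whereas the other 4 did not. Because pool 4 was the lowest odor pool for all 6 genes, leaving it out was bound to raise these differences. The 2 calls are therefore a description. The outlier test given at the end did not flag odor pool 4 titled GFP+ for any of the 6 genes. In that fit 0.0256% of all genes, 5 of 19505, passed as higher and 3 as lower. With any other single pool left out, vehicle pool 2 included, 0 of the 6 passed.

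Some lists of other cells were lowest in the same pools and others were not. The neutrophil list (11 genes) averaged 13.3 in odor pool 4, the lowest of a range of 13.3 to 15.4 in the odor arrays titled GFP+, against 13.7 in vehicle pool 2, the lowest of 13.7 to 14.9 in the vehicle arrays. The myeloid progenitor list (8 genes) was lowest in the same 2 pools, at 9.47 in odor pool 4 and 10.3 in vehicle pool 2, and so was the proliferation list (9 genes), at 6.86 and 6.52. The macrophage list was lowest in odor pool 2, at 6.50, and in vehicle pool 2, at 6.80. The B progenitor list was lowest in odor pool 3 and vehicle pool 2, at 6.10 and 5.79, and the platelet list in odor pool 1 and vehicle pool 1, at 4.57 and 4.55. Between treatments the neutrophil list had a median difference of 0.00, the proliferation list 0.60, with 9 of 9 genes positive, and the macrophage list -0.22. All of the 11 neutrophil and 9 proliferation genes were above background in at least 1 array titled GFP+ of each treatment. The part of these cells in the red cell differences was not tested.

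**Figure D4:**
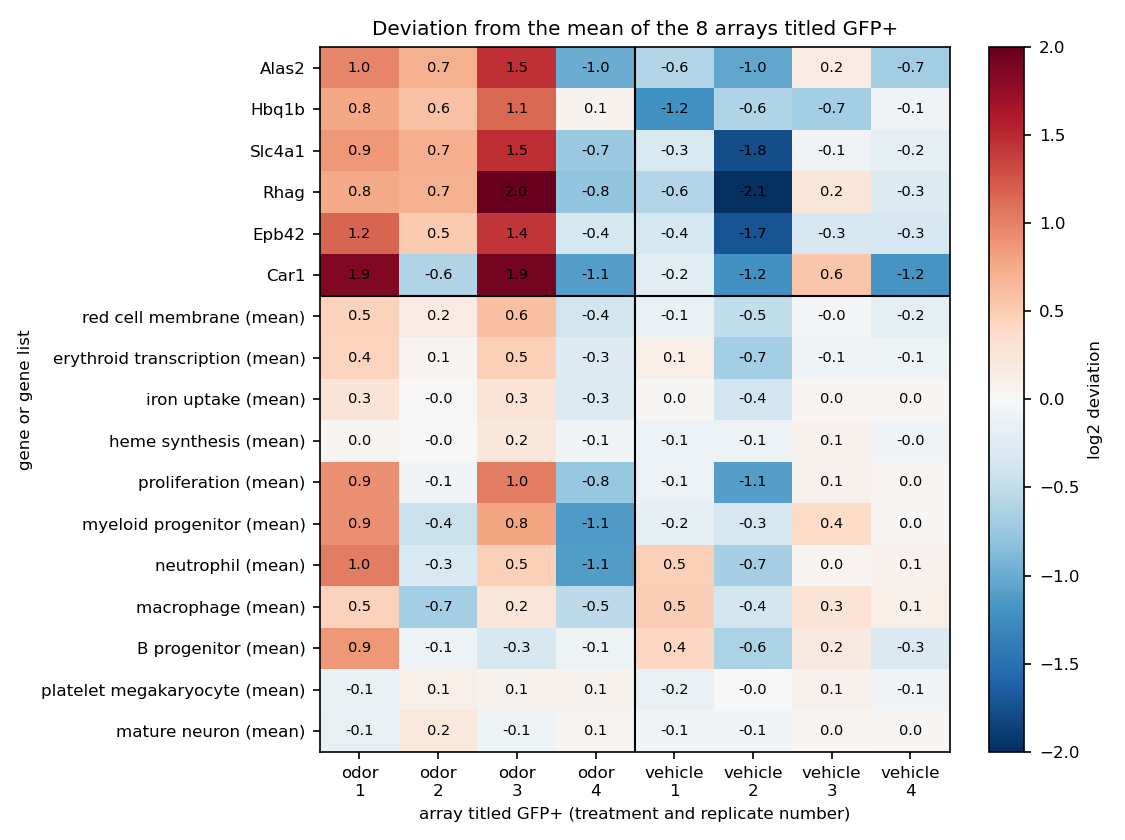
Deviation of each gene or list mean from its mean over the 8 arrays titled GFP+ (log2, colour and printed value), with odor pools left of vehicle pools. The 6 red cell genes are at their highest in odor pool 3, and at their lowest in vehicle pool 2 for all but Hbq1b, with the neutrophil, myeloid progenitor and proliferation lists also lowest in odor pool 4 and vehicle pool 2 among pools of their treatment.

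Within the arrays titled GFP- the treatments differed by -0.31 to 0.13, with 0 of 6 genes past the test (the lowest adjusted p, of Rhag, was 0.98, limma) and 0 of 6 under 0.05 without adjustment. No gene of the whole array passed (0%), and 5.88% were under 0.05 unadjusted. Rhag, Epb42 and Hbq1b were at or below background in each of these arrays, and Car1 was so in all but 1. Only Alas2 and Slc4a1 were above background throughout, and neither exceeded the 95th percentile of the negative controls in any of these arrays. For them the 95% interval was -0.67 to 0.93 and -0.91 to 0.75. By number, Alas2 and Slc4a1 were higher in odor in 3 of 4 pairs, with differences of -0.66 to 0.71 and of -0.74 to 0.27. The labels do not say that the numbers pair the pools. With the numbers as a block in this fraction, the 6 genes again gave 0 calls, while the calls over all genes were 15 rather than 0.

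Other red cell genes were taken from 7 lists with 72 measured genes. In the odor pools 35 of the 72 were higher in titled GFP+ and 3 were lower, with a median difference of 0.39, against -0.15 for all genes. Under vehicle 21 were higher and 3 lower (median 0.29, against -0.14 for all genes). Of all genes 14.7% were called lower in the odor pools and 13.6% in the vehicle pools, beside the shares called higher given above. Between treatments none of the 72 passed in either fraction, and their median in titled GFP+ was 0.22, against 0.01 for all genes.

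Of the membrane list, 9 of 17 genes were higher and 2 were lower in titled GFP+ in the odor pools, and 6 were higher and 1 lower in the vehicle pools. Aqp1, the water channel of red cells, was 3.81 higher in the odor pools and 2.66 higher in the vehicle pools. Slc14a1, a urea transporter, was 2.43 and 2.37 higher, in that order of treatments. In the arrays titled GFP-, Aqp1 was above background in 2 of 4 odor arrays, and Slc14a1 in 2 of 4 odor and 1 of 4 vehicle arrays. The odor value of Aqp1 and both values of Slc14a1 are therefore fitted sizes. Sptb, the beta chain of spectrin, was not above background in titled GFP- and was at least 4.52-fold and 1.68-fold higher, odor first, and Ermap, an erythroid membrane protein, at least 2.30-fold in the odor pools; in the vehicle pools Ermap passed the test (adjusted p = 0.000868), but background allows no fold. The lower genes were Dmtn and Stom in the odor pools and Dmtn in the vehicle pools.

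Of the transcription list, 6 of 14 genes were higher and 1, Bcl11a, lower in the odor pools, and 4 were higher in the vehicle pools. E2f2, a cell cycle factor, was 6.13 higher in the odor pools and 5.01 in the vehicle pools, and Ikzf1, which acts in many blood lineages, 5.03 and 3.55. E2f2 was above background in 1 of 4 arrays titled GFP- of each treatment, so its differences are fitted sizes only. Gfi1b was 2.34 and 1.50 higher, and Nfe2, which activates globin genes, at least 3.20-fold and 2.10-fold. Gata1, the central factor of the lineage, had differences of 0.43 (adjusted p = 0.182) and -0.17 (adjusted p = 0.616) and passed in neither. It was above background in 3 of 4 odor arrays titled GFP+ and in no array of the other groups. Its differences are thus mostly between signals below background and do not show its level. Klf1 passed in the odor pools (adjusted p = 0.0208, at least 1.05-fold) but not in the vehicle pools (adjusted p = 0.0689).

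In iron handling 7 of 10 genes were higher in the odor pools and 5 in the vehicle pools. Slc40a1, the iron exporter, which is also on the macrophage list, was 2.13 higher in both, Ftl1, a ferritin chain, 2.02 and 1.78, and Slc25a37, which brings iron into mitochondria, 1.34 and 0.99. Slc40a1 was above background in 1 of 4 odor and 2 of 4 vehicle arrays titled GFP-, so its differences are fitted sizes. Ireb2, an iron-responsive RNA-binding protein, and Fth1, the ferritin heavy chain, were 0.39 and 0.18 higher in the odor pools. In the vehicle pools they were 0.45 and 0.15 higher, in that order of genes. Tfrc, the transferrin receptor, was 1.07 higher in the odor pools (adjusted p = 0.00522) and 0.45 in the vehicle pools (adjusted p = 0.191). Of the heme synthesis list, 5 of 12 were higher in the odor pools, namely Alad, Abcb10, Fech, Tmem14c and Ppox, by 0.50 to 1.06. Under vehicle Tmem14c was higher by 0.54 and Slc25a39 changed by -0.28.

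Of the enzyme list, 4 of 6 were higher in the odor pools and 3 in the vehicle pools. Cat, catalase, was 2.91 and 2.64 higher, and Blvrb, biliverdin reductase B, 2.19 and 1.75, odor first. Prdx2, a peroxiredoxin, was 0.33 and 0.32 higher, and Car2, a second carbonic anhydrase, 0.76 higher in the odor pools. Of the reticulocyte maturation list, 3 of 8 were higher in the odor pools (Trim10, Bnip3l and Ube2l6), and in the vehicle pools Bnip3l and Ube2l6 were higher and Ube2o was lower. In the hemoglobin list, 1 of 5 measured genes, Hbq1a, passed as higher in the odor pools (adjusted p = 0.00173), and 0 in the vehicle pools; with 1 of its 4 odor arrays titled GFP+ above background, no fold is given. The 4 others, Hbb-bh1, Hbb-bh2, Hbb-y and Hba-x, are embryonic or minor globins and were below background in all odor arrays titled GFP+. The adult alpha and beta globin genes were on this list of 14 genes but not among its 5 measured ones. Only features with 1 gene name were used, so the level of the adult globins is not known here.

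**Figure D5:**
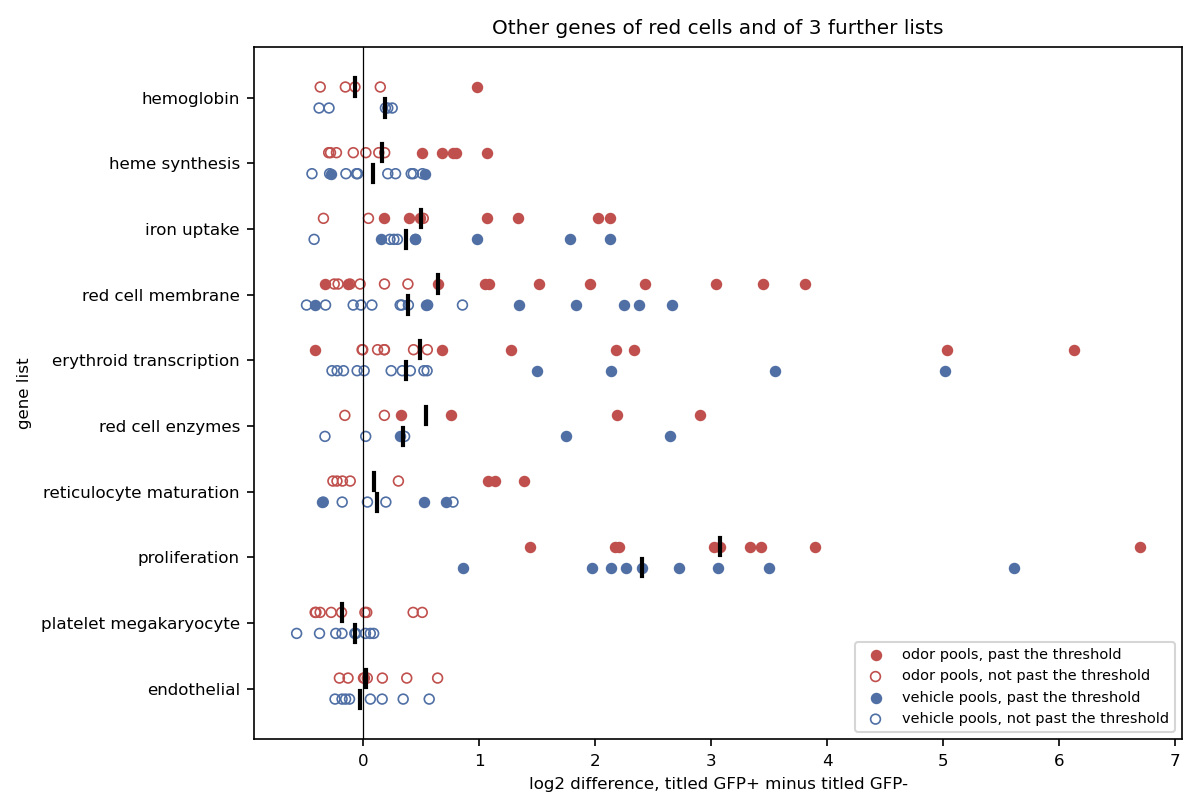
Log2 difference, titled GFP+ minus titled GFP-, of every measured gene of 7 red cell lists and of 3 further lists, with odor pools above vehicle pools in each row. Filled points passed adjusted p 0.05, open points did not, and black ticks are medians. All 9 proliferation genes are filled in both treatments, and none of the platelet and endothelial genes is.

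Many genes of other blood cells were also higher in titled GFP+. In the odor and in the vehicle pools, 11 of 11 neutrophil genes were higher, with median differences of 8.37 and 8.49, and 8 of 8 myeloid progenitor genes, with medians of 4.46 and 4.05. All 9 proliferation genes were higher, with medians of 3.08 and 2.40. In titled GFP-, 6 and 5 of these 9 genes were at or below background in all arrays, odor first. So were 2 and 3 of the 11 neutrophil genes and 3 and 4 of the 8 myeloid progenitor genes. These medians are fitted values and not bounds. The macrophage list had 7 and 8 of 11 genes higher, the stem cell list 5 of 7 in both, the mast cell list 4 of 8 in both and the B progenitor list 3 of 9 in both, with 1 lower in the odor pools. The platelet list (9 genes) and the endothelial list (8 genes) had 0 called, and of 12 mature neuron genes 5 were lower in the odor pools and 6 in the vehicle pools. Of 10 housekeeping genes 4 were higher in each treatment, and 1 was lower in the vehicle pools. Their part in the red cell differences was not tested.

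Across the 16 arrays, which differ by fraction and share pools, the 6 genes correlated with each other at 0.785 to 0.985 (Pearson, a description). Such values were common: 363 to 1984 genes reached a member's lowest r with another member, and the 95th percentile of r over all genes was 0.737 to 0.913. The 3 most similar genes were Isg20, Ermap and Slc25a37 for Alas2, with r of 0.971 for Isg20. Those of Hbq1b were Ermap (0.925), Tcf19 and Epb42. Slc4a1 was most like Aqp1 (0.987), Epb42 and H2ac4, and Epb42 most like Slc4a1 (0.985), Ermap and Nusap1. For Rhag they were Ctse (0.990), Pbk and Mki67, and for Car1 Prkab1 (0.986), Anxa2 and Ptpre. Over deviations from the 4 group means, r between members ran from 0.113 to 0.883. Here too such values were common: 1873 to 6649 genes reached a member's lowest r with another member. The 95th percentile of r over all genes was 0.431 to 0.627 on this scale. The closest genes were Isg20 for Alas2 (0.929), Chrm3 for Hbq1b (0.823), Tbxas1 for Slc4a1 (0.953), Ctse for Rhag (0.945), Ampd3 for Epb42 (0.933) and Tlr5 for Car1 (0.904).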

How the data were processed

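The deposited table holds log2 signals of 16 arrays that the authors made in Affymetrix Expression Console according to the submitters' processing notes. The version and normalization were not given in the sources used here. That the scale is log2 was read from the values. Array number limits the precision. Features were named through a platform annotation, and where a gene had several features the one with the highest mean was kept, which left 19505 genes. Groups and replicate numbers come from the titles. The members and the 18 gene lists were chosen with earlier results of these data known. Named genes are the 6 members, S100a5 and Omp, up to 4 genes of each list with the largest difference among those past the threshold (all where 5 or fewer passed), and the 3 most similar genes of each member. Lists of other cells are given as counts only, apart from this rule. Gata1, Klf1, Dmtn, Stom, Bcl11a and, in the vehicle pools, Tfrc were named after their values were seen. The same holds for Ireb2 and Fth1 in the odor pools.

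Tests used limma 3.58.1 in R 4.3.3 (eBayes, variance trend), were two-sided and were adjusted by Benjamini-Hochberg over all genes, at a threshold of 0.05. Fractions were compared with the pool as a fixed block, and odor with vehicle by group means, the pool being a random block (correlation 0.164). The fit was tested on simulated data. A feature at or below the median of the negative controls in all arrays of a group was given a lower bound. The fractions of 1 pool come from the same mice. Same-numbered pools of the 2 treatments correlated, in deviations from group means, at 0.198 to 0.279 in titled GFP-, above 0.1 in 4 of 4 pairs. In titled GFP+ they correlated at 0.079 to 0.410, above 0.1 in 3 of 4 pairs. The labels do not say that the numbers pair the pools. The main tests of odor therefore used no number block, and a number block was run as an alternative in both fractions. Alternatives were other blocks, median centring, cyclic loess, omission of dim genes, the mean of a gene's features, no variance trend and leaving out each pool.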

Additional observations from a re-analysis of the deposited data

Results flagged for a closer look

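Of 24 combinations of gene and group, 3 held an array far from the other 3 of its group by Dixon's test at the 95% level, and chance alone flags about 1 in 20. Slc4a1 was 10.22 in vehicle pool 2 titled GFP+, where the other 3 arrays were at 11.70 to 11.93. Epb42 was 4.74 in the same array, where the others were at 6.11 to 6.14. Hbq1b was 3.21 in odor pool 2 titled GFP-, where the others were at 3.43 to 3.47, all below the background of the negative controls. The same vehicle pool 2 was lowest among the vehicle arrays titled GFP+ for Alas2, Rhag and Car1 as well, without passing that test.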

How the results depend on the processing

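The 6 genes were all past the threshold between fractions in the odor pools under every alternative run that kept them; omission of dim genes left out Hbq1b. In the vehicle pools Hbq1b, at 0.57 and not past it, passed under cyclic loess (0.68, adjusted p = 0.0295), without odor pool 4 (0.57, adjusted p = 0.0406) and without vehicle pool 1 (0.75, adjusted p = 0.0339), and 5 to 6 of the 6 passed when single pools were left out.

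Over all genes, median centring gave 14808 calls in the odor pools (1902 higher, 12906 lower, against 2502 and 2860) and 14357 in the vehicle pools (1818 and 12539, against 2406 and 2658), and moved the median of all genes to -0.53 and -0.51; cyclic loess gave 2922 higher and 1395 lower, and 2792 and 1411, with medians of -0.02 in both. Leaving out a pool gave 3709 to 5518 calls in the odor pools and 3552 to 5143 in the vehicle pools. The difference between treatments had 0 calls with no variance trend, against 1. In titled GFP+, calls over all genes were 0 with dim genes left out and 0 with no variance trend, and 0 to 8 when single pools were left out, while the 6 genes had 0 to 2. In titled GFP- leaving out pools gave 0 to 2 calls. Setting signals below background to the control median, an alternative chosen after seeing the data and run without a test, left Alas2 and Slc4a1 as they were and turned Hbq1b in the vehicle pools to -0.18, with both fractions below background. The other causes were not tested.

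For the replicate block, calls over all genes were 2 in titled GFP+ and 15 in titled GFP-, with 0 of the 6 genes in either. The labels do not say that the numbers pair the pools. Without the pool block, the fractions gave 4596 calls in the odor pools and 4358 in the vehicle pools, and the block changed no other call of the 6 genes.

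In titled GFP-, where differences were near 0, signs turned when single pools were left out. Slc4a1 ran from -0.20 to 0.077, positive without odor pool 2, Alas2 from -0.11, without odor pool 3, to 0.38, Hbq1b from -0.22 to 0.048, without vehicle pool 4, and Car1 from -0.53 to 0.17, without odor pool 4, with 0.14 without vehicle pool 1 and 0.11 without vehicle pool 3.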
